A study of Mus musculus with 7 samples.

Results

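DNA methyltransferases, Tet enzymes and chromatin regulators mutated in myeloid neoplasms were examined in Ddx41+/+ and Ddx41+/- LSK cells. The set was chosen by gene symbol and comprised 10 genes, out of 24421 gene symbols counted. It held the DNA methyltransferases Dnmt1, Dnmt3a and Dnmt3b, the methylcytosine dioxygenases Tet1, Tet2 and Tet3, and the chromatin regulators Asxl1, Asxl2, Ezh2 and Bcor. All 10 genes were present in the counts, and all 10 passed the filter on low counts that left 13340 genes for testing.

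DNA methyltransferases place a methyl group on the cytosine of CpG dinucleotides. Dnmt1 copies existing marks onto the new strand after replication, whereas Dnmt3a and Dnmt3b set marks on unmethylated DNA. Tet enzymes oxidize methylcytosine, which opens the way to its removal. Ezh2 is the catalytic subunit of Polycomb repressive complex 2 (PRC2), which methylates lysine 27 of histone H3. Asxl proteins are cofactors of the deubiquitinase Bap1, which takes ubiquitin off histone H2A, and Bcor is a scaffold of the variant Polycomb complex PRC1.1, which places that ubiquitin. In blood stem cells, DNMT3A, TET2 and ASXL1 are known as the most frequent targets of clonal hematopoiesis, and EZH2 and BCOR are lost in myelodysplastic syndromes.

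RNA-seq profiled LSK cells, sorted from bone marrow as Lin-Sca1+Kit+, a gate that contains hematopoietic stem cells and multipotent progenitors. The 4 Ddx41+/+ samples (replicates 1 to 4) came from recipients of Ddx41+/+ RosaCreERT2 marrow. The 3 Ddx41+/- samples (replicates 6 to 8) came from recipients of RosaCreERT2 marrow with 1 floxed Ddx41 allele, and Ddx41 encodes a DEAD-box RNA helicase. Both groups shared the Cre transgene, which is expressed from a ubiquitous locus, the lethally irradiated BoyJ hosts, tamoxifen (1 mg a day over 5-day rounds), and harvest at 8 weeks after transplantation. The hosts' own genome carried 2 intact Ddx41 alleles, and the labels name no donor marker in the LSK sort, so residual host cells cannot be told apart from donor cells. The age of the mice, their sex and any batch are not given in the labels. In the counts, Xist was at 667.0 to 1153 CPM in Ddx41+/+ and 786.9 to 1167 CPM in Ddx41+/- samples. The Y-linked genes Ddx3y, Eif2s3y, Kdm5d and Uty had 0 counts in every sample. A Ddx41+/- library numbered 5 was left out of the deposited counts and was not analysed here.

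Total counts ranged from 32234499 to 43751290 per sample. Ddx41, the targeted gene, averaged 97.87 ± 6.43 CPM (counts scaled to a common library size, SD, n = 4) in wild-type samples against 67.32 ± 2.63 CPM (SD, n = 3) in heterozygous samples (log2 fold change -0.54, edgeR adjusted p = 0.0052). The LSK marker Kit was detected at 427.1 to 505.1 CPM in Ddx41+/+ and 455.5 to 490.2 CPM in Ddx41+/- samples. Ly6a, which encodes Sca1, was at 17.66 to 23.6 CPM and 13.3 to 30.49 CPM. The 13 stem and progenitor markers listed summed to 1982 to 2172 CPM in Ddx41+/+ and 1801 to 1951 CPM in Ddx41+/- samples, without overlap. Of these markers 12 had a fold change below 0, 8 (61.5%) had an unadjusted p under 0.05 and a lower level in Ddx41+/- (all genes, 4.93%), 5 had levels without overlap (all genes, 5.21% lower), and 1, Gata2, was called lower by edgeR (all genes, 0.0975%). Neutrophil markers summed to 941 to 1452 CPM and 1530 to 2522 CPM, also without overlap. Of the 15 tested, 12 (80.0%) had an unadjusted p under 0.05 and a higher level in Ddx41+/- (all genes, 5.7%), 10 had levels without overlap (all genes, 4.85% higher), and 1, Mmp9, was called higher (all genes, 0.12%). B-lineage markers summed to 45.39 to 67.37 CPM and 59.72 to 82.97 CPM, T and NK markers to 222.9 to 273.8 CPM and 252.8 to 283.2 CPM, and late erythroid markers to 34.62 to 63.97 CPM and 50.3 to 71.85 CPM. Nearly all of the T and NK sum was 1 gene, Nkg7, at 220.7 to 272.2 CPM and 250.5 to 281.0 CPM. The sum is therefore no measure of T and NK cells. In the B-lineage, T and NK, and late erythroid lists edgeR called 0 genes (all genes, 0.217%). Of the 10 B-lineage markers, 9 had a fold change above 0 (all genes, 48.8%), with a median log2 fold change of 0.59. At an unadjusted p under 0.05, 3 of them (30.0%) were higher in Ddx41+/- (all genes, 5.7%). In 2 the levels were higher without overlap (all genes, 4.85%). Of the 4 T and NK and 4 late erythroid markers tested, 0 had an unadjusted p under 0.05. The adult globin genes Hba-a1, Hba-a2, Hbb-bs and Hbb-bt had 0 counts in every sample. The part of these markers in the results below was not tested, and in a bulk sample fewer cells expressing a gene cannot be told apart from less RNA per cell.

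None of the 10 regulators differed between genotypes at a Benjamini-Hochberg (BH) adjusted p under 0.05, against 0.217% of all genes tested (29 of 13340) with the quasi-likelihood test of edgeR. At an unadjusted p under 0.05 stood 1 of the 10, Tet2, against 10.6% of all genes. DESeq2 called 0 of the 10 (all genes, 164 called) and had 1 at that unadjusted level. Limma-voom called 0 of the 10 (all genes, 39 called) and had 2. The share of all genes at the unadjusted level is not given for these tools, so the 1 and the 2 have no background beside them. The levels of the genotypes overlapped for all 10 regulators, whereas 10.1% of all genes tested had levels without overlap. Of the fold changes, 8 were above 0 and 2, for Dnmt3b and Ezh2, were below 0. Their median log2 fold change was 0.07 (all genes, 0.00, with 48.8% of genes above 0). Counting error was small beside the spread between mice, since the lowest count of a regulator was 1154, for Tet1 in Ddx41+/+ replicate 3, where the Poisson SD is 2.94%.

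**Figure D1:**
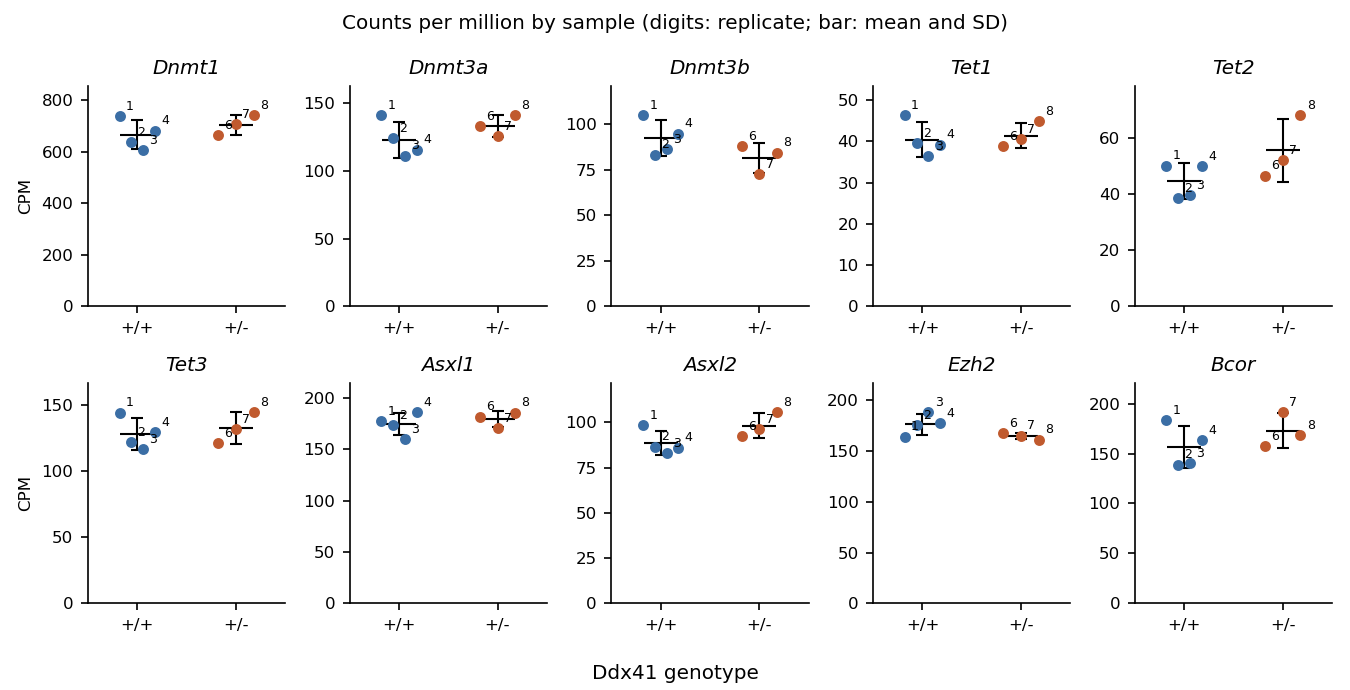
Level of each regulator in CPM (y axis, from 0) by Ddx41 genotype (x axis), with 1 point per sample, the replicate number beside it, and a bar for the mean and SD (n = 4 Ddx41+/+, n = 3 Ddx41+/-). The genotypes overlap in all 10 panels, and Ddx41+/- replicate 8 stands above all other samples for Tet2 at 68.22 CPM.

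The maintenance methyltransferase Dnmt1 (chromosome 9, 20907209 to 20959888, minus strand, GRCm38) was the most abundant regulator. It was detected at 738.2, 637.9, 605.6 and 682.0 CPM in Ddx41+/+ replicates 1 to 4 and at 665.2, 706.1 and 743.1 CPM in Ddx41+/- replicates 6 to 8. The highest sample of each genotype, Ddx41+/+ replicate 1 and Ddx41+/- replicate 8, were nearly equal, and the groups overlapped over most of their range. The means were 665.9 ± 57.5 CPM (SD, n = 4) and 704.8 ± 39.0 CPM (SD, n = 3), with a log2 fold change of 0.08 (SE 0.0701, edgeR adjusted p = 0.728). The 95% interval placed the Ddx41+/- level between 95.47% and 117.3% of the Ddx41+/+ level. Uhrf1, which recruits Dnmt1 to hemimethylated CpG sites, was at 374.1 ± 7.25 CPM (SD, n = 4) and 369.7 ± 14.7 CPM (SD, n = 3), with a log2 fold change of -0.02 (edgeR adjusted p = 0.944).

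The de novo methyltransferases had fold changes of opposite sign. Dnmt3a (chromosome 12, 3806007 to 3914443, plus strand) was detected at 141.3, 124.0, 111.2 and 115.6 CPM in Ddx41+/+ and 132.9, 125.3 and 141.0 CPM in Ddx41+/- samples. The 3 Ddx41+/- values all lay within the Ddx41+/+ range. The log2 fold change was 0.11 (SE 0.0802, edgeR adjusted p = 0.659), with an interval from 96.11% to 121.7% of the Ddx41+/+ level. Dnmt3b (chromosome 2, 153649450 to 153687730, plus strand) was detected at 105.2, 83.34, 86.15 and 94.83 CPM in Ddx41+/+ and 88.0, 72.47 and 84.43 CPM in Ddx41+/- samples. Its lowest sample was Ddx41+/- replicate 7 and its highest Ddx41+/+ replicate 1, while the remaining 5 samples were intermixed. The log2 fold change of -0.18 (SE 0.089) was the lowest of the set and did not pass the test (edgeR unadjusted p of 0.0631, adjusted p = 0.504). The interval ran from 77.53% to 100.8% of the Ddx41+/+ level. Part of the Dnmt3a exons, 133 bases, overlaps the antisense transcript Dnmt3aos, and whether strand was used in counting is not given in the sources used here.

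The Tet enzymes were led by Tet2 in the size of their fold change. Tet2 (chromosome 3, 133463679 to 133545139, minus strand), whose loss expands stem cells, was detected at 50.14, 38.62, 39.58 and 50.01 CPM in Ddx41+/+ and 46.59, 52.09 and 68.22 CPM in Ddx41+/- samples. Ddx41+/- replicate 6 lay below the 2 highest Ddx41+/+ samples, so the groups overlapped, and Ddx41+/- replicate 8 lay far above the rest. The means were 44.59 ± 6.35 CPM (SD, n = 4) and 55.63 ± 11.2 CPM (SD, n = 3), or 124.8% of the Ddx41+/+ level. This gave a log2 fold change of 0.32 (SE 0.1355), an interval from 101.7% to 153.2%, an unadjusted p of 0.0364 and an edgeR adjusted p of 0.427. Without Ddx41+/- replicate 8 the log2 fold change was 0.14, and over 14 alternative settings the unadjusted p was under 0.05 in 9 and the adjusted p ranged from 0.2 to 0.797.

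Tet1 and Tet3 had fold changes close to 0. Tet1 (chromosome 10, 62804570 to 62908996, minus strand), best known from embryonic stem cells, was at 46.45, 39.62, 36.45 and 39.18 CPM in Ddx41+/+ and 38.85, 40.49 and 44.91 CPM in Ddx41+/- samples. Tet3 (chromosome 6, 83362373 to 83459084, minus strand), known for oxidizing the paternal genome of the zygote, was at 144.1, 122.1, 116.5 and 129.2 CPM and at 121.2, 131.5 and 144.8 CPM. For both genes, Ddx41+/+ replicate 1 and Ddx41+/- replicate 8 were the 2 highest samples. The log2 fold changes were 0.03 (SE 0.0945) for Tet1 and 0.05 (SE 0.0806) for Tet3 (edgeR adjusted p = 0.931 and 0.878). Intervals ran from 89.14% to 117.7% and from 91.94% to 116.5% of the Ddx41+/+ level.

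Sequence before RefSeq starts of Dnmt3b and Tet2 is shown because these genes had the lowest and the highest fold change of the set. Each is the 250 bases before a RefSeq gene start in GRCm38.p6, written 5′ to 3′ on the gene's strand, with CpG dinucleotides, the substrate of the enzymes described here, in capitals. The Dnmt3b sequence spans chr2:153649199-153649448 (plus strand) and the Tet2 sequence chr3:133544391-133544640 (minus strand). The Tet2 stretch precedes a RefSeq start that lies inside the gene span given above, so it is downstream of the outermost start of that annotation.
Dnmt3b: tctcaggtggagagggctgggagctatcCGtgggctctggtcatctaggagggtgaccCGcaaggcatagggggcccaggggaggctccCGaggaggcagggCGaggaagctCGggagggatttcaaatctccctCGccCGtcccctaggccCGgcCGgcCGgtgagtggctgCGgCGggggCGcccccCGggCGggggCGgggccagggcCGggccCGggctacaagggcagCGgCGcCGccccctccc
Tet2: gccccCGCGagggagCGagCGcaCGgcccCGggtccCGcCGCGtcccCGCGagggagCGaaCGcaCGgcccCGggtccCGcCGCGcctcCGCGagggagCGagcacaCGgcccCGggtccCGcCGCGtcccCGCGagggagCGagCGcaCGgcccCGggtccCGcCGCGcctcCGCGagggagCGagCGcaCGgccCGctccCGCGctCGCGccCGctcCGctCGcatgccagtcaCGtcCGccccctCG
The Dnmt3b stretch held 21 CpG dinucleotides and the Tet2 stretch 51. In the Tet2 stretch, 77.9% of the bases equaled the base 42 positions further on, the period of a tandem repeat. Across the 10 regulators the table held 15 windows of 300 bases around RefSeq starts, with a median of 22 CpG dinucleotides, against 20 in windows of the genes tested and 7 in all 32851 windows. A GC content of at least 50% together with an observed to expected CpG ratio of at least 0.6 was found in 11 of the 15 windows, against 63.6% of windows of genes tested and 33.5% of all windows. Windows of Bcor overlap each other, as do windows of Dnmt3a, so shared bases entered these values more than once. DNA methylation itself was not measured in these samples.

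Asxl1 and Asxl2 are paralogs that lie close to de novo methyltransferase genes. Asxl1 (chromosome 2, 153345829 to 153404007, plus strand), truncated in myeloid malignancies, was detected at 177.8, 173.7, 160.3 and 186.6 CPM in Ddx41+/+ and 181.8, 170.4 and 185.7 CPM in Ddx41+/- samples. All 3 Ddx41+/- values fell within the Ddx41+/+ range. The log2 fold change was 0.04 (SE 0.0656, edgeR adjusted p = 0.884), with an interval from 93.25% to 113.1%. Asxl2 (chromosome 12, 3426857 to 3506852, plus strand), whose human gene is mutated in leukemia with RUNX1 fusions, was at 98.33, 86.52, 83.11 and 86.04 CPM and at 92.27, 96.23 and 105.8 CPM. Ddx41+/+ replicate 1 lay above 2 of the 3 Ddx41+/- samples, and the other Ddx41+/+ samples lay below all 3. Asxl2 had a log2 fold change of 0.15 (SE 0.0754, edgeR unadjusted p of 0.0663, adjusted p = 0.513) and an interval from 99.22% to 123.8%. The exons of Asxl1 and Asxl2 overlap opposite-strand genes by 197 and 155 bases, with the same limit as for Dnmt3a.

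Asxl1 and Dnmt3b are separated by 245.4 kb on chromosome 2, and Asxl2 and Dnmt3a by 299.2 kb on chromosome 12. The protein-coding genes between them that were tested did not pass the test either. Nol4l and Commd7, between Asxl1 and Dnmt3b, had log2 fold changes of -0.23 (edgeR adjusted p = 0.514) and -0.09 (edgeR adjusted p = 0.683). Dtnb, between Asxl2 and Dnmt3a, had a log2 fold change of 0.00 (edgeR adjusted p = 0.995).

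Ezh2 (chromosome 6, 47530139 to 47595341, minus strand) was detected at 164.3, 175.3, 188.8 and 177.3 CPM in Ddx41+/+ and 167.4, 165.2 and 161.3 CPM in Ddx41+/- samples. The Ddx41+/- samples were tightly grouped, and 3 of the 4 Ddx41+/+ samples lay above them, with Ddx41+/+ replicate 1 among them. Ezh2 had a log2 fold change of -0.10 (SE 0.0626, edgeR adjusted p = 0.607), with an interval from 85.12% to 102.3% of the Ddx41+/+ level. Its paralog Ezh1, which forms a PRC2 of lower activity in resting cells, was at 40.38 ± 2.93 CPM (SD, n = 4) and 37.91 ± 1.33 CPM (SD, n = 3), with a log2 fold change of -0.09 (edgeR adjusted p = 0.756).

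Bcor (chromosome X, 12036740 to 12160355, minus strand) was detected at 183.2, 139.0, 140.3 and 163.6 CPM in Ddx41+/+ and 157.6, 191.8 and 168.5 CPM in Ddx41+/- samples. Ddx41+/- replicate 7 was the highest sample, Ddx41+/+ replicate 1 was next, and the groups overlapped. Bcor had a log2 fold change of 0.14 (SE 0.0968, edgeR adjusted p = 0.655), with an interval from 95.44% to 127.3%. Bcorl1, its paralog, was at 32.09 ± 4.38 CPM (SD, n = 4) and 33.17 ± 1.33 CPM (SD, n = 3), with a log2 fold change of 0.05 (edgeR adjusted p = 0.912).

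Levels were then set side by side per length, as CPM per kb of exon sequence, the union of the exons of all annotated transcripts. Which transcripts were expressed was not tested, and the order below and the family shares depend on this length. It was 16642 bases over 18 transcripts for Dnmt3a and 5106 bases over 12 for Dnmt3b. In CPM, without this division, Dnmt3a was above Dnmt3b in Ddx41+/+ samples, with means of 123.0 and 92.37. In Ddx41+/+ samples Dnmt1 stood at 90.3 ± 7.79 CPM per kb (SD, n = 4), above all the others. It was followed by Ezh2 at 26.4 (range 24.6 to 28.3) and Asxl1 at 23.5 (21.5 to 25.1), which overlapped, then by Dnmt3b at 18.1 ± 1.93 (SD) and Bcor at 18.1 ± 2.43 (SD), which overlapped as well. Tet3 at 7.67 (6.98 to 8.63) and Dnmt3a at 7.39 (6.68 to 8.49) overlapped, Asxl2 was at 5.55 (5.21 to 6.17), and Tet2 at 2.64 (2.29 to 2.97) and Tet1 at 2.62 (2.36 to 3.0) could not be ordered. Within families, Dnmt1 made up 77.5% to 78.4% of the methyltransferase level per kb in Ddx41+/+ and 78.1% to 81.5% in Ddx41+/- samples. Tet3 made up 58.5% to 60.1% and 55.5% to 58.0% of the Tet level, and Tet2 18.8% to 22.4% and 22.0% to 25.9%. Asxl1 made up 79.5% to 82.3% and 79.0% to 80.8% of the level of the Asxl pair.

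To compare family members without dependence on library scaling, 6 ratios of counts within a sample were formed. The Dnmt3b:Dnmt3a ratio was 0.7442, 0.672, 0.7747 and 0.8201 in Ddx41+/+ and 0.662, 0.5782 and 0.5989 in Ddx41+/- samples. It was the only 1 of the 6 ratios without overlap between genotypes, although Ddx41+/+ replicate 2 and Ddx41+/- replicate 6 were close. The log2 difference, Ddx41+/- minus Ddx41+/+, was -0.29 (exact permutation p = 0.0571, two-sided, BH-adjusted over 6 ratios 0.171), where 0.0286 is the smallest p that 4 against 3 samples allow. The Tet1:Tet2 ratio was 0.9142 ± 0.0997 (SD, n = 4) and 0.7565 ± 0.0896 (SD, n = 3), and the Tet3:Tet2 ratio 2.89 ± 0.238 and 2.416 ± 0.257. Each had an exact permutation p of 0.0857 (BH-adjusted 0.171), with log2 differences of -0.27 and -0.26, and Tet2 is the shared denominator. Asxl2:Asxl1 differed by 0.11 (exact permutation p = 0.2, BH-adjusted 0.3), Dnmt1:Dnmt3a by -0.03 (p = 0.629, BH-adjusted 0.754) and Ezh1:Ezh2 by 0.01 (p = 0.943), all on the log2 scale. None of the 6 ratios passed a BH-adjusted p under 0.05.

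**Figure D2:**
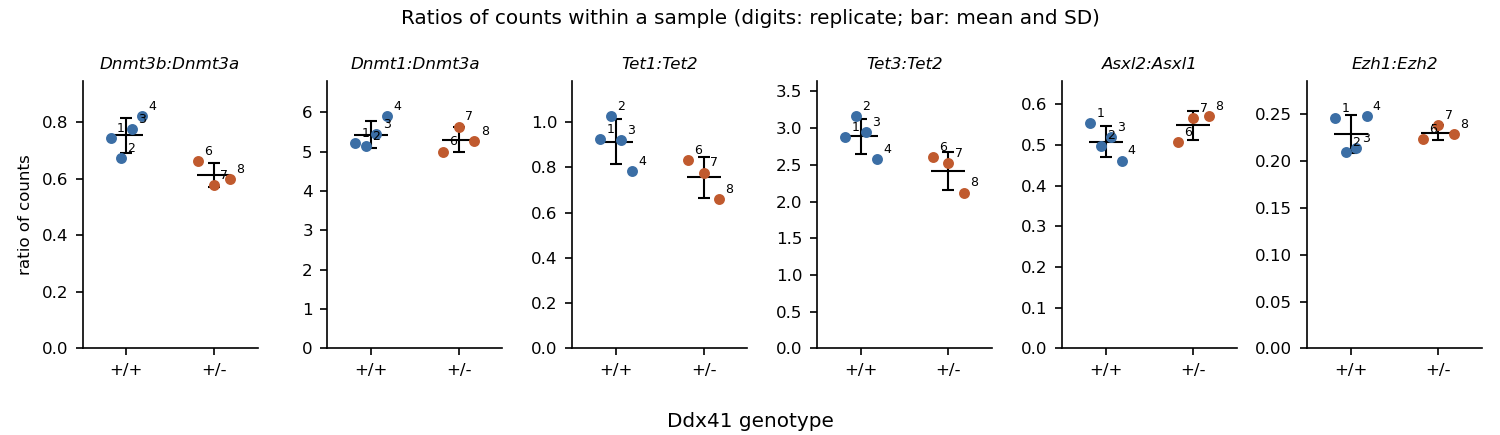
Ratio of counts within a sample (y axes, from 0, no unit) for 6 gene pairs by Ddx41 genotype (x axis), with 1 point per sample and bars for the mean and SD (n = 4 Ddx41+/+, n = 3 Ddx41+/-). The genotypes separate for Dnmt3b:Dnmt3a alone, with a lowest Ddx41+/+ value of 0.672 and a highest Ddx41+/- value of 0.662.

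The regulators shared a property that the choice of genes did not use, long exon sequence as the union over annotated transcripts. Exon sequence spanned 5106 bases for Dnmt3b to 16870 bases for Tet2, and all 10 genes were longer than the median gene tested (4343 bases). Long genes as a class differed between samples. The median log2 deviation of genes of at least 8000 bases (2205 genes) was set against that of genes under 2000 bases (1889 genes). For Ddx41+/+ replicates 1 to 4 the difference, long minus short, was 0.102, -0.091, -0.151 and -0.064, and for Ddx41+/- replicates 6 to 8 it was -0.051, 0.057 and 0.171. The samples with the highest values, Ddx41+/+ replicate 1 and Ddx41+/- replicate 8, also had the highest total counts, and they held the highest level of 7 of the 10 regulators. Ddx41+/+ replicate 3, with the lowest value and the lowest total count, held the lowest level of 6. The median log2 deviation of the 10 regulators was 0.135, -0.076, -0.156 and 0.007 in Ddx41+/+ and -0.033, 0.007 and 0.134 in Ddx41+/- samples, in nearly the order of the long genes.

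**Figure D3:**
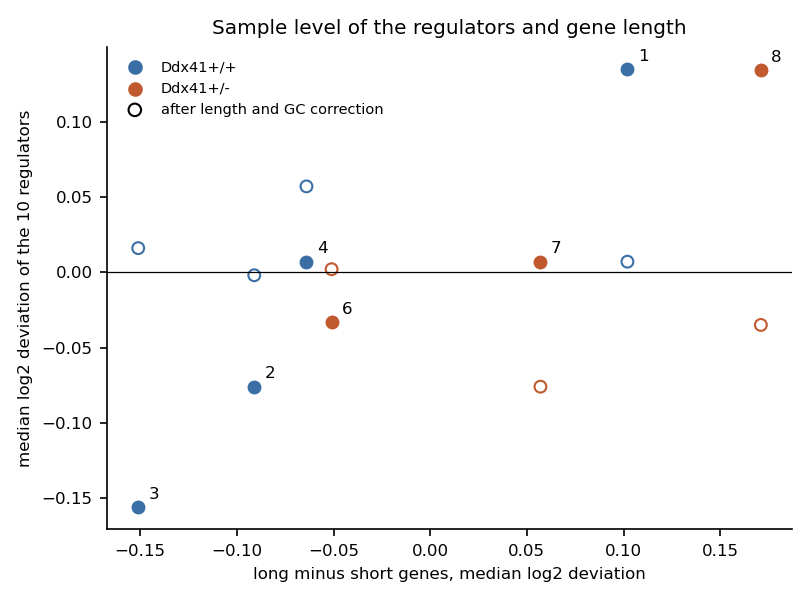
Median log2 deviation of the 10 regulators from their mean over samples (y axis) against the median log2 deviation of long minus short genes (x axis), 1 filled point per sample with its replicate number and 1 open point after correction for length and GC content. Filled points run from -0.156 in Ddx41+/+ replicate 3 to 0.135 in Ddx41+/+ replicate 1, and open points from -0.076 to 0.057.

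The fit was repeated with a correction of each sample for transcript length and GC content. The median deviation of the regulators then ran from -0.002 to 0.057 in Ddx41+/+ and from -0.076 to 0.002 in Ddx41+/- samples. The corrected log2 fold change was 0.00 for Dnmt3a and -0.01 for Asxl2, and those of Tet1, Tet3 and Asxl1 turned to -0.13, -0.07 and -0.03. Tet2 was left at 0.18 (unadjusted p = 0.0959, edgeR adjusted p = 0.53). Dnmt1 at 0.08, Dnmt3b at -0.15, Ezh2 at -0.09 and Bcor at 0.09 kept their sign and moved by less than their standard error. The median of the 10 was -0.02, with 4 above 0 and 6 below, and 0 of the 10 passed the edgeR test against 0.472% of all genes (63 of 13340).

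Corrected levels of 2 of the 10, Tet1 and Ezh2, did not overlap between genotypes, against 10.9% of all genes tested. Tet1 was at 43.1, 42.7, 41.5 and 42.4 corrected CPM in Ddx41+/+ and 40.8, 36.6 and 38.8 in Ddx41+/- samples (unadjusted p = 0.0887, edgeR adjusted p = 0.516). Ezh2 was at 172.5, 172.5, 179.0 and 180.0 corrected CPM and at 167.6, 162.9 and 164.6 (unadjusted p = 0.0674, edgeR adjusted p = 0.474). Both were lower in Ddx41+/- samples, as were 4.95% of all genes without overlap, and neither was called. The corrected Dnmt3b:Dnmt3a ratio overlapped between genotypes, with a log2 difference of -0.15 (exact permutation p = 0.2), so the separation of that ratio was not seen after the correction.

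**Figure D4:**
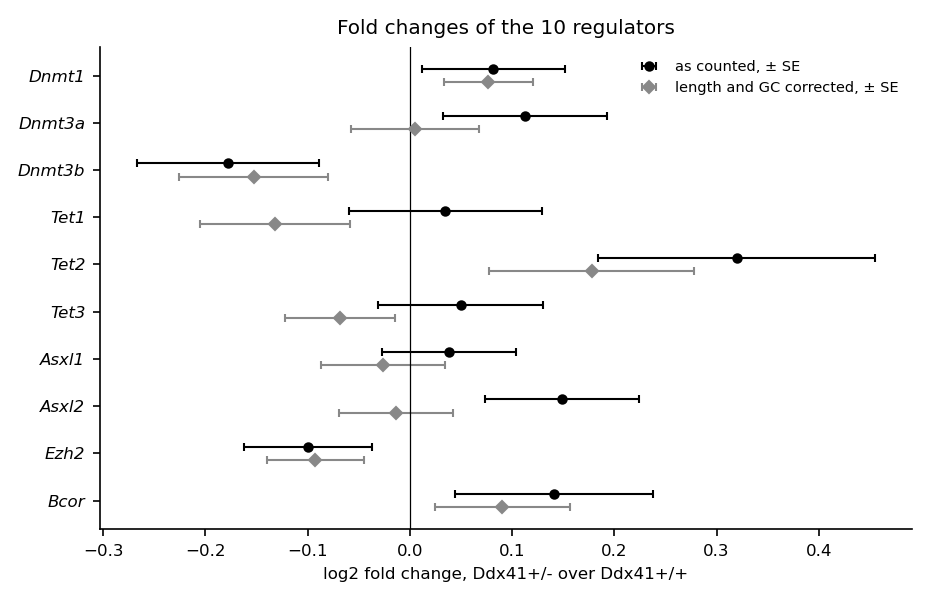
Log2 fold change of Ddx41+/- over Ddx41+/+ (x axis) for each regulator (y axis), as counted (black) and after correction for length and GC content (gray), with bars of 1 SE from the edgeR fit. Tet2 lies highest at 0.32 as counted and 0.18 corrected, Dnmt3b lies lowest at -0.18 and -0.15, and Tet1, Tet3, Asxl1 and Asxl2 change sign.

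Dnmt1 and Ezh2 are textbook targets of E2F factors and rise in S phase, so the levels of the regulators were compared with an S-phase score, the mean log2 deviation of 25 S-phase genes. The summed S-phase level was 6006 to 6133 CPM in Ddx41+/+ and 5948 to 6136 CPM in Ddx41+/- samples. The score spanned a narrow log2 range, from -0.036 in Ddx41+/- replicate 7 to 0.028 in Ddx41+/+ replicate 3. The correlations below therefore relate to very small differences in S-phase level. Over the 7 samples, Ezh2 had a Pearson's r of 0.779 (exact permutation p = 0.0304, BH-adjusted over 10 genes 0.0607) and a Spearman's rho of 0.75 (exact permutation p = 0.0663, BH-adjusted 0.0947). Dnmt1 had an r of -0.834 (exact permutation p = 0.025, BH-adjusted 0.0607) and a rho of -0.857 (exact permutation p = 0.0238, BH-adjusted 0.0595). Without Ddx41+/- replicates 7 and 8, the samples farthest from the median score, r was 0.726 for Ezh2 and -0.934 for Dnmt1. The negative r of Dnmt1 was shared by regulators not named as E2F targets here, with -0.846 for Asxl2, -0.829 for Bcor, -0.798 for Tet3, -0.791 for Tet2, -0.7 for Tet1, -0.574 for Dnmt3a and -0.244 for Asxl1, while Dnmt3b had 0.319. No regulator passed the adjustment for either measure, and with library totals as the only scaling r was 0.602 for Ezh2 and -0.117 for Dnmt1. After the length and GC correction r was 0.672 for Ezh2 and -0.814 for Dnmt1, and without the same samples these became -0.255 and -0.112, so both relations rested on those samples there.

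The E2F motifs TTTCCCGC, TTTGGCGC, TTTCGCGC and TTTGCCGC were searched on both strands of the 15 windows. Of these, 2 held a match, the Ezh2 window and 1 of the Dnmt1 windows, against 3.81% of windows of genes tested and 2.26% of all windows. The sites are printed with the match in capitals, on the strand of the gene, from chr6:47595010-47595037 (minus strand) for Ezh2 and from chr9:20952574-20952600 and chr9:20952825-20952852 (minus strand) for Dnmt1. In the last of them the capitals are the reverse complement of TTTCGCGC.
Ezh2: ggttgctgcgTTTGGCGCtcggtccggt
Dnmt1: cggggcagcgTTTGGCGCgggctgtgc
Dnmt1: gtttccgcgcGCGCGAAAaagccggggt
A match is a description of the letters and was not tested for binding.

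For 9 of the regulators the gene with the most similar profile is given, taken from the 88 regulators and pathway genes tested, by Pearson's r of log2 CPM over the 7 samples, as a description. Tet3 was nearest to Arid1a (0.985), Tet1 to Kmt2a (0.984), Dnmt1 to Ep300 (0.969) and Asxl2 to Kmt2c (0.966). Tet2 was nearest to Kdm5c (0.934), Dnmt3a to Kmt2c (0.93), Asxl1 to Ehmt2 (0.91), Dnmt3b to Bap1 (0.832) and Ezh2 to Skp1a (0.819). All points share library size and the length profile of the sample. After the length and GC correction the same pairs had an r of 0.814 for Tet2 and Kdm5c and 0.808 for Tet3 and Arid1a, but 0.296 for Tet1 and Kmt2a, 0.211 for Dnmt1 and Ep300, 0.29 for Asxl2 and Kmt2c and -0.043 for Dnmt3a and Kmt2c. The pairs of Dnmt3b, Ezh2 and Asxl1 had an r of 0.595, 0.562 and -0.099.

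Partners of the regulators were examined in 5 lists, and none of their genes was called higher or lower by edgeR, DESeq2 or limma-voom. Of 25 tested genes of the DNA methylation machinery beside the regulators, 3 had an unadjusted p under 0.05 and a higher level (all genes, 5.7%), 0 a lower level (all genes, 4.93%), and the median log2 fold change was 0.00. Hells, a remodeler needed for normal CpG methylation, was at 91.26 ± 3.17 CPM (SD, n = 4) and 106.9 ± 9.07 CPM (SD, n = 3) without overlap (log2 fold change 0.23, edgeR adjusted p = 0.264). The methyl-CpG binding factor Zbtb38 had a log2 fold change of 0.29 (edgeR adjusted p = 0.311), and Idh1, which makes the 2-oxoglutarate that Tet enzymes consume, of 0.20 (edgeR adjusted p = 0.395). Corrected for length and GC content, Hells, Zbtb38 and Idh1 had log2 fold changes of 0.13, 0.18 and 0.22. The edgeR adjusted p of these was 0.41, 0.417 and 0.162. Dppa3 and Wt1 did not pass the filter on low counts.

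Among 12 PRC2 genes tested, 2 (16.7%) had an unadjusted p under 0.05 and a higher level (all genes, 5.7%). At that level 0 were lower (all genes, 4.93%), and the median log2 fold change was -0.01. Suz12, a core subunit that Ezh2 needs for activity, was at 190.1 ± 5.42 CPM (SD, n = 4) and 209.5 ± 4.83 CPM (SD, n = 3) without overlap (log2 fold change 0.14, edgeR adjusted p = 0.392), while Ezh2 had a fold change below 0. Lcor, which shares its locus with the PRC2 accessory protein PALI1, was at 7.374, 3.054, 2.274 and 3.095 CPM and at 6.601, 7.386 and 9.492 CPM. Ddx41+/+ replicate 1 lay among the Ddx41+/- samples, the log2 fold change was 0.98 (edgeR adjusted p = 0.341), and without that replicate the adjusted p was 0.0196. Lcorl had a log2 fold change of 0.19 (edgeR adjusted p = 0.642). Corrected for length and GC content, Suz12, Lcor and Lcorl had log2 fold changes of 0.10, 0.92 and 0.05. The edgeR adjusted p of these was 0.45, 0.36 and 0.918.

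Of the Bap1 complex, the deubiquitinase with which Asxl proteins act, 9 genes were tested. At an unadjusted p under 0.05, 1 (11.1%) was higher (all genes, 5.7%) and 0 were lower (all genes, 4.93%). The median log2 fold change was 0.10. Bap1 itself was at 127.8 ± 7.34 CPM (SD, n = 4) and 123.8 ± 3.66 CPM (SD, n = 3), with a log2 fold change of -0.05 (edgeR adjusted p = 0.859). Kdm1b, Ogt and Mbd5 had log2 fold changes of 0.27 (edgeR adjusted p = 0.447), -0.23 (edgeR adjusted p = 0.547) and 0.19 (edgeR adjusted p = 0.598). Corrected for length and GC content, these were 0.23, -0.28 and 0.06 (edgeR adjusted p = 0.491, 0.514 and 0.887). Of 10 genes tested of PRC1.1, the complex of Bcor, 0 had an unadjusted p under 0.05 (all genes, 10.6%), and the median log2 fold change was 0.02. Its catalytic subunit Ring1, its ubiquitin ligase component Skp1a and its CpG-binding subunit Kdm2b had log2 fold changes of 0.16, -0.12 and 0.10 (edgeR adjusted p = 0.549, 0.598 and 0.614). With the correction these were 0.21, -0.10 and 0.11 (edgeR adjusted p = 0.335, 0.505 and 0.449).

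In the list of 24 other chromatin and cohesin genes mutated in myeloid disease, 22 fold changes were above 0 (all genes, 48.8%). The median log2 fold change was 0.10. At an unadjusted p under 0.05, 4 genes (16.7%) were higher (all genes, 5.7%) and 0 were lower (all genes, 4.93%). In 5 of the 24 (20.8%) the levels of the Ddx41+/- samples lay above all Ddx41+/+ samples, against 4.85% of all genes. The cohesin genes Stag1, Smc3 and Stag2 were at 114.6%, 113.0% and 111.5% of the Ddx41+/+ level (edgeR adjusted p = 0.293, 0.322 and 0.348). After the length and GC correction 16 of the 24 were above 0 (all genes, 50.5%), and the median was 0.04. In 4 the corrected levels were higher without overlap (16.7%, against 5.91% of all genes). The cohesin genes then had log2 fold changes of 0.12, 0.12 and 0.06.

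**Figure D5:**
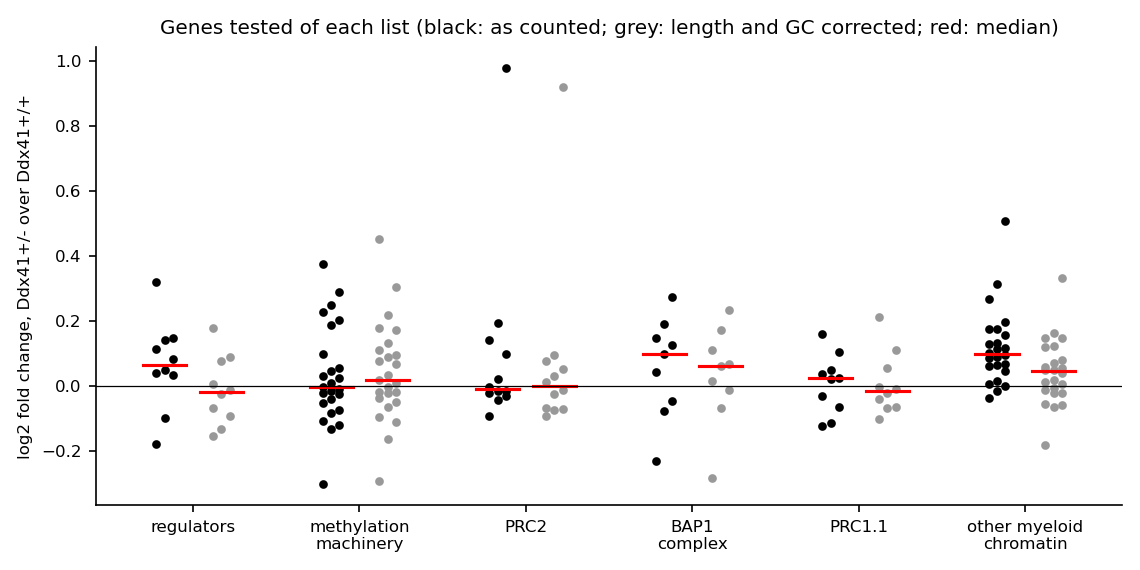
Log2 fold change of Ddx41+/- over Ddx41+/+ (y axis) for each gene tested, by list (x axis), as counted (black) and after correction for length and GC content (gray), with medians in red. The other myeloid chromatin genes have a median of 0.10 as counted and 0.04 corrected, the 10 regulators 0.07 and -0.02, and the single high point is Lcor at 0.98.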

How the data were processed

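Raw counts for each gene symbol, deposited without normalization, were used for 7 samples (4 Ddx41+/+, 3 Ddx41+/-) grouped by the genotype in the labels. Per the submitters' processing notes, FastQC 0.11.7, HISAT2 2.0.5 and featureCounts 1.5.2 were used with the mouse build mm10. The labels name a stranded library kit and the study's methods an unstranded one, and the use of strand in counting is not given in the sources used here. The depth was 32234499 to 43751290 counts per sample. Each sample is stated to come from its own recipient mouse, and whether their donors differed is not stated.

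Genotypes were compared in edgeR 4.0.16 (R 4.3.3) by a robust quasi-likelihood fit with TMM scaling and filterByExpr. P-values were BH-adjusted across all 13340 tested genes (threshold 0.05). The standard error was derived as |log2 fold change| divided by the root of F, and 95% intervals are from the moderated fit. CPM used TMM-scaled library sizes, and log2 CPM a prior count of 2. Ratios were compared by exact two-sided permutation over the 35 splits, and correlations by exact permutation of pairings. Alternatives were library totals, median-of-ratios and upper-quartile scaling, no filter, DESeq2 1.42.0, voom of limma 3.58.1 with quality weights, and leaving out each sample. A correction for transcript length and GC content, an offset from a loess fit per sample, was chosen after seeing the data. Length and GC were known for 96.3% of genes tested, from GENCODE M21 (GRCm38, the assembly named mm10). The correction used the longest annotated transcript of a gene, whereas the classes of long and short genes used the union of its exons. The fits were also run on simulated counts. These held larger changes than those of the regulators and no trend with length or GC content. The simulation is therefore no measure of power or error for the regulators.

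The regulators and gene lists were chosen with earlier results of these data known. Named genes were all regulators, the 3 genes with the smallest p of each pathway list, any called gene of these lists, Ezh1, Uhrf1, Bap1, Bcorl1, Ddx41 and the nearest profile of each regulator (not reported here for Bcor). Marker genes, Nol4l, Commd7 and Dtnb were named beside the results they touch. RefSeq windows (250 bases before to 50 after a start) matched all 10 regulators by symbol.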

Additional observations from a re-analysis of the deposited data

How the results depend on the processing

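No regulator was called under any of the 14 alternatives. Log2 fold changes of the regulators kept their direction in 132 recomputed values and reversed in 8. They reversed with the length and GC correction for Tet1 (-0.13), Tet3 (-0.0683), Asxl1 (-0.0262) and Asxl2 (-0.0137), and on leaving out single samples, where Tet1 ranged from -0.0285 (without Ddx41+/- replicate 8) to 0.1083, Tet3 from -0.0195 (without Ddx41+/- replicate 8) to 0.1118, and Asxl1 from -0.0004 (without Ddx41+/+ replicate 3) to 0.0727. The Dnmt1:Dnmt3a log2 difference became 0.0753 with the correction and ranged from -0.0778 to 0.0078 without single samples, and Ezh1:Ezh2 from -0.0324 to 0.048. The S-phase correlation reversed with library totals for Tet1 (0.041) and Asxl1 (0.41), and with the correction for Dnmt3a (0.723), Tet1 (0.755), Tet3 (0.605), Asxl1 (0.758) and Asxl2 (0.72). The cause was not tested. The number of all genes called, 29, became 15 with library totals, 91 with no filter, 164 with DESeq2 and 63 with the correction, and 7 to 41 without single samples (7 without Ddx41+/+ replicate 2, 9 without Ddx41+/- replicate 8, 14 without Ddx41+/- replicate 7, 16 without Ddx41+/+ replicate 3, 41 without Ddx41+/+ replicate 1). The number of PRC2 genes called was 0 to 1, with Lcor called without Ddx41+/+ replicate 1. No paired analysis was possible because the genotypes share no replicate number. With 4 against 3 samples, small changes could not be detected. The intervals given are not adjusted for the number of genes tested, so they understate the change needed for a call. Tet2 had an interval above the Ddx41+/+ level, from 101.7% to 153.2% of it, and was not called (edgeR adjusted p = 0.427). A check for a sample far from the rest was run on 18 sets of Ddx41+/+ values, and 0 held such a sample. These sets were the levels of the regulators, the count ratios, and the S-phase and neutrophil scores. Lcor was not among them, and it was at 7.374 CPM in Ddx41+/+ replicate 1 against 3.054, 2.274 and 3.095 CPM in replicates 2 to 4. With 4 values per set the check finds only an extreme sample, so its result on the 18 sets does not clear any sample. Ddx41+/+ replicate 1 stood above the mean over all samples for 9 regulators. The 3 Ddx41+/- samples are too few for that check.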
